A study of Mus musculus with 6 samples.

Results

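The genes described here are Il33, Cd83, Tap1, Il2rg, Coro1a and Lcp1, 6 genes of immune signalling and of leukocytes, read in whole mouse hearts. They were chosen by name, with the knockout and wild-type values of these same arrays already known, so their differences between genotypes are given as a description and not as a test. A probe set was a member if it had values and the platform annotation gave it 1 of these symbols alone. This held for 5 of the 6 genes, with 1 probe set each, among 494 measured genes, and Il2rg, the receptor chain shared by several interleukins, was not analysed here. The identities were 1416200_at for Il33, 1416111_at for Cd83, 1416016_at for Tap1, 1416246_a_at for Coro1a and 1415983_at for Lcp1. Further probe sets named for Tap1 (3), Coro1a (2) and Lcp1 (1) were blank in the table and were not analysed here.

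RNA was measured on 6 Affymetrix 3' expression arrays, 1 per heart, from 3 wild-type mice and 3 Pgc1b knockout mice. All 6 mice had a mixed background of sv129 and C57BL/6, had free access to food and water, and carried the same date label, so no batch could be separated. The labels used here give no age or sex and no treatment, and do not say whether the controls were littermates. Pgc1b, named Ppargc1b in current tables, encodes a coactivator of nuclear receptors and was not analysed here, so its transcript gives no check of the labelled genotypes. The values are log2 expression values after RMA, the usual background correction and normalization of such arrays, on which a step of 1 is a doubling of signal.

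Il33 is an alarm cytokine of the interleukin-1 family that is stored in the nuclei of stromal and endothelial cells and acts on leukocytes that carry its receptor. Cd83 is a surface protein of activated dendritic cells and lymphocytes. Tap1 is a subunit of the transporter that carries peptides into the endoplasmic reticulum for loading onto MHC class I, and interferon induces it in most cell types. Coro1a and Lcp1 encode actin-binding proteins, coronin 1A and L-plastin, that leukocytes of nearly all lineages make in large amounts, so in a solid tissue they are read as general leukocyte genes. A healthy heart holds resident macrophages and few lymphocytes beside its muscle, endothelial and fibroblast cells. In a whole heart, a change in the number of cells of a type and a change in RNA per cell cannot be told apart.

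The sequence upstream of the outermost annotated start was taken for 4 of the 5 measured genes from RefSeq windows of build GRCm38.p6, and Cd83 had no entry. Il33 and Tap1 ranked the genotypes in opposite order, and Coro1a and Lcp1 were highest in the same heart. A link between sequence and these values was not tested, and the windows are shown as a description. Each is the 250 bases before the start, 5′ to 3′ on the gene's strand, and capitals mark matches, on either strand, to TATAAA (bound by the general factor TBP), CCAAT (bound by the factor NF-Y), GGGCGG (a GC box, bound by Sp factors), AGGAAG (a core of ETS factor sites) or AANNGAAA (a core of interferon regulatory factor sites).
Il33, chr19:29924863-29925112, plus strand: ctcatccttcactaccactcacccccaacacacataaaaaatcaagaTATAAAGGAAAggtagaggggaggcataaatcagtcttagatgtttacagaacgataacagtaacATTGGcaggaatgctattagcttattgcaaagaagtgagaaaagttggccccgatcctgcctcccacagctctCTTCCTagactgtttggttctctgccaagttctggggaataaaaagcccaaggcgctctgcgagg
Tap1, chr17:34187306-34187555, plus strand: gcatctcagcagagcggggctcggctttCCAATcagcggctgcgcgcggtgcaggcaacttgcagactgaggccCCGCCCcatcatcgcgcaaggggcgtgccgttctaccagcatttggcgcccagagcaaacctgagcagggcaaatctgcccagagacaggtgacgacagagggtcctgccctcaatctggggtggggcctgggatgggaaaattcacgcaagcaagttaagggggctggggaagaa
Coro1a, chr7:126704817-126705066, minus strand: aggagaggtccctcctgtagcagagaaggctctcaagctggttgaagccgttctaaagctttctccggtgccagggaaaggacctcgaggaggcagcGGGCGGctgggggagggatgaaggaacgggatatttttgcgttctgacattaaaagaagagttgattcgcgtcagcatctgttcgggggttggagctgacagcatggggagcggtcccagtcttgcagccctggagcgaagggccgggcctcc
Lcp1, chr14:75130873-75131122, plus strand: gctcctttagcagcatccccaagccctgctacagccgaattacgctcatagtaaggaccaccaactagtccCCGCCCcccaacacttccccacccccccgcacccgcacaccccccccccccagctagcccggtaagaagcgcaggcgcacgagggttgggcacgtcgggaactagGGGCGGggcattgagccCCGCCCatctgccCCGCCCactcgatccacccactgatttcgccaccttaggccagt

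The Il33 window was 45.2% G and C with 4 CpG dinucleotides, and held a TATAAA match 203 bases before the start, an AANNGAAA match that overlaps it, a CCAAT match and an AGGAAG match. The other 3 windows were richer in G and C, at 62.4% for Tap1, 58.8% for Coro1a and 66.0% for Lcp1, with 14, 13 and 16 CpG dinucleotides. The median over 32841 such windows was 52.4% with 6 CpG dinucleotides. A GC box was present in Tap1, Coro1a and Lcp1, with 4 matches in Lcp1, and in 32.75% of all windows. TATAAA was present in 12.37% of all windows, CCAAT in 33.86%, AGGAAG in 29.49% and AANNGAAA in 21.31%. None of the 4 printed windows held the longer ETS site GAGGAAGT, which contains AGGAAG, the NF-kB motif GGNNTTTCC or the oestrogen-related receptor motif TCAAGGTCA, which were in 2.44%, 4.93% and 0.39% of all windows. Further starts are annotated for Il33, Coro1a and Lcp1. The Il33 window at its inner start held TATAAA 29 bases before that start. The inner window of Coro1a held AGGAAG 57 bases before its start, and that of Lcp1 held AANNGAAA 231 bases before its start. A 3' array does not show which start was used, and a match is a description of letters, not a site.

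The measured genes fell into 3 patterns. Il33 and Cd83 were higher in every knockout heart than in every wild-type heart, Tap1 was lower in every knockout heart, and Coro1a and Lcp1 overlapped between the genotypes. Groups that do not overlap were thus seen in 3 of the 5 genes, and in 19.4% of the 494 measured genes (9.51% with the knockout higher and 9.92% with the knockout lower). In limma, with Benjamini-Hochberg adjustment over all 494 genes, 0 of the 5 and 0% of all genes had an adjusted p under 0.05. At an unadjusted limma p under 0.05 the counts were 3 of the 5 and 11.5% of all genes, and at an unadjusted p under 0.01 they were 1 of the 5, Il33, and 2.43% of all genes. The rule that chose the genes drew on this same contrast, so nothing is read from these shares. By mean expression, Il33, Cd83, Tap1 and Coro1a were dim, below the 0.25 quantile of the 494 genes.

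**Figure D1:**
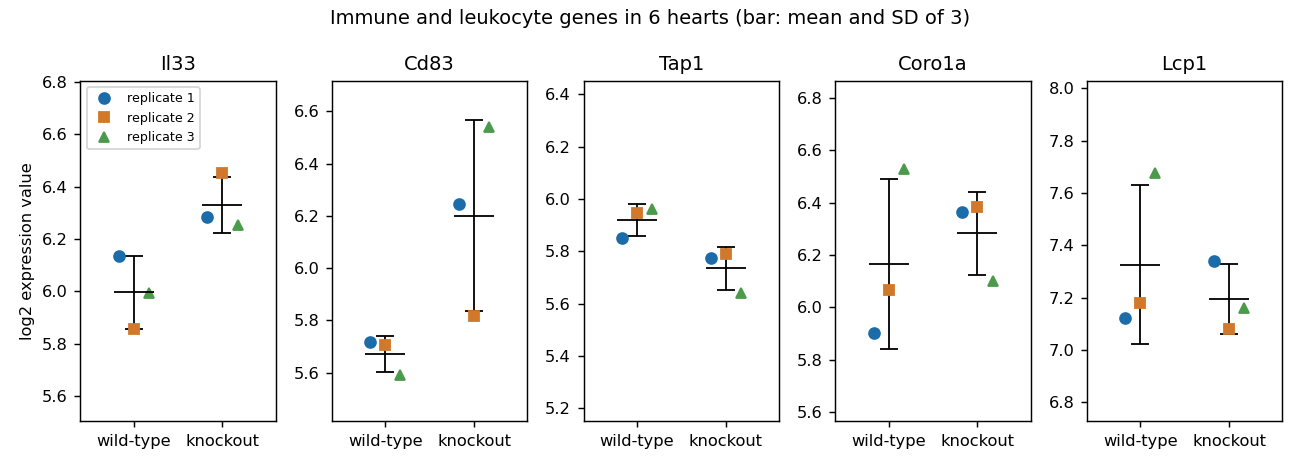
Log2 expression value (vertical axis, all panels spanning the same range) of the 5 measured genes in 3 wild-type and 3 knockout hearts, with points for single hearts and bars for the mean and SD of 3. The genotypes do not overlap for Il33, Cd83 and Tap1, and overlap for Coro1a and Lcp1, where wild-type replicate 3 is the highest heart.

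Il33, the stromal cytokine, had log2 values of 6.14, 5.86 and 5.99 in wild-type replicates 1 to 3 and 6.29, 6.45 and 6.25 in knockout replicates 1 to 3. The highest wild-type heart and the lowest knockout heart were 0.12 apart, while the wild-type hearts spanned 0.28 and the knockout hearts 0.20. The wild-type mean was 6.00 ± 0.14 and the knockout mean 6.33 ± 0.11 (SD, n = 3 each). The difference of 0.33 (95% interval 0.11 to 0.56) puts the knockout level at 126% of wild type. It was the 11th highest of the 494 differences. Il33 was the 1 measured gene of a list of 25 interleukin-1 family ligands, receptors and signalling proteins, so its receptor Il1rl1 was not analysed here.

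Cd83, the activation gene, had the widest difference of the members and also the widest spread within a genotype. The wild-type hearts lay close together at 5.72, 5.71 and 5.59, whereas the knockout hearts stood at 6.25, 5.82 and 6.54. Knockout replicate 2 was thus only 0.10 above the highest wild-type heart, and knockout replicate 3 was far above it. The means were 5.67 ± 0.07 and 6.20 ± 0.36 (SD, n = 3 each), a difference of 0.53 (95% interval 0.14 to 0.92) and a knockout level of 144% of wild type. The difference was the 6th highest of the 494. It was 0.72 without knockout replicate 2 and 0.36 without knockout replicate 3.

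The other measured genes of leukocyte activation and NF-kB signalling had lower means in knockout hearts. Of the 32 genes of this list, Vcam1 and Junb were measured beside Cd83, and 0 of the 2 passed. Vcam1, the adhesion molecule that leukocytes bind on endothelium, stood at 6.72, 6.94 and 7.12 in wild-type and 6.47, 6.81 and 6.94 in knockout hearts, a difference of -0.19 (95% interval -0.53 to 0.15). Junb, an immediate early transcription factor, differed by -0.04 (95% interval -0.29 to 0.20). The genotypes overlapped for both.

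Tap1, the peptide transporter subunit, had log2 values of 5.85, 5.95 and 5.96 in wild-type and 5.77, 5.79 and 5.64 in knockout hearts. The groups were separated by 0.06, the narrowest gap of the 3 separated genes. The means were 5.92 ± 0.06 and 5.74 ± 0.08 (SD, n = 3 each), a difference of -0.18 (95% interval -0.36 to -0.01) and a knockout level of 88.0% of wild type. Tap1 ranked 43rd among the lower differences. Antigen processing had 2 further measured genes out of a list of 35, and 0 passed in either direction. The chaperone Canx, calnexin, which helps MHC class I fold, stood at 9.75 ± 0.13 and 9.76 ± 0.05 (SD, n = 3), and Abcb9, a lysosomal peptide transporter related to Tap1, at 5.97 ± 0.05 and 5.97 ± 0.06 (SD, n = 3). Their differences were 0.01 (95% interval -0.19 to 0.21) and -0.01 (95% interval -0.17 to 0.16). No other gene of the interferon list of 47 was analysed here.

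Cd83 and Tap1 ordered the 6 hearts in exactly opposite ways. From lowest to highest Cd83, the hearts ran wild-type replicates 3, 2 and 1 and then knockout replicates 2, 1 and 3, and this was the order from highest to lowest Tap1. Pearson's r between these genes over the 6 hearts was -0.91, a description of arrays that also share the genotype split. Il33 followed another order, since its highest knockout heart, replicate 2 at 6.45, was the lowest knockout heart for Cd83. This order was looked at after the values had been seen.

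The general leukocyte genes did not separate the genotypes. Coro1a, coronin 1A, had log2 values of 5.90, 6.07 and 6.53 in wild-type and 6.36, 6.38 and 6.10 in knockout hearts. Lcp1, L-plastin, had values of 7.12, 7.18 and 7.68 in wild-type and 7.34, 7.08 and 7.16 in knockout hearts. For both genes wild-type replicate 3 was the highest of all 6 hearts, and the range among wild-type hearts, 0.63 and 0.55, was wider than the range among knockout hearts, 0.28 and 0.26. The differences between genotypes were 0.12 for Coro1a (95% interval -0.27 to 0.50) and -0.13 for Lcp1 (95% interval -0.49 to 0.23), smaller than the SD of the wild-type hearts (0.33 and 0.30). Both intervals leave room for a change in either direction. Over the 6 hearts Pearson's r between Coro1a and Lcp1 was 0.68.

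**Figure D2:**
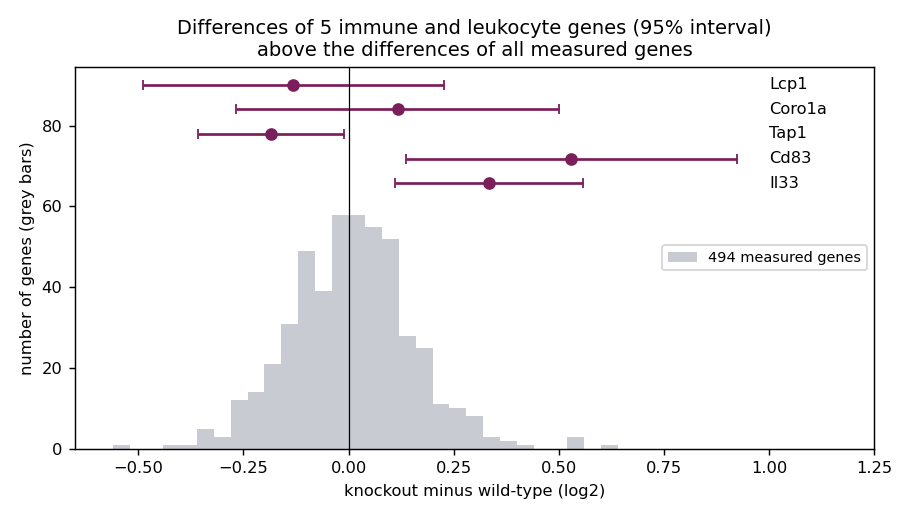
Knockout minus wild-type difference on the log2 scale (horizontal axis) for the 5 measured genes, as points with 95% intervals, over a histogram of the differences of all 494 measured genes (grey, number of genes on the vertical axis). The intervals of Coro1a and Lcp1 span 0, while Il33 (0.33) and Cd83 (0.53) lie in the upper tail.

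The sign of the Lcp1 difference and the size of the Coro1a difference rested on wild-type replicate 3. Without this heart the difference of Lcp1 was 0.04 (95% interval -0.20 to 0.28) and that of Coro1a 0.30 (95% interval 0.02 to 0.58). Without wild-type replicate 1, the heart lowest in Coro1a, the difference of Coro1a was -0.02. Without wild-type replicate 3 the difference of Il33 was 0.33 (95% interval 0.06 to 0.61) and that of Cd83 0.49 (95% interval 0.01 to 0.97). That of Tap1 was -0.16, with an interval that included 0 (-0.37 to 0.05). The interval of Tap1 also included 0 without wild-type replicate 2 (-0.39 to 0.05) or knockout replicate 3 (-0.33 to 0.06). It excluded 0 without wild-type replicate 1 or without knockout replicate 1 or 2.

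Of the 4 measured fibroblast markers, out of a list of 21, Mmp2 and Lox were also highest in this heart, and Gsn and Fmod were not. Mmp2, a matrix metalloproteinase made by fibroblasts, stood at 8.87 in wild-type replicate 3 and at 8.02 to 8.32 in the other 5 hearts, and Lox, which cross-links collagen and elastin, at 5.47 against 4.42 to 4.83. By the margin over the next highest heart, Lox (0.64) and Mmp2 (0.56) ranked 1st and 2nd of the 494 genes in wild-type replicate 3, Lcp1 (0.33) 7th, Vcam1 (0.18) 19th and Coro1a (0.15) 25th. Wild-type replicate 3 was the highest heart for 3 of the 5 members (Coro1a, Lcp1 and, by 0.01, Tap1) and for 19.6% of all measured genes. Gsn, at 12.28, was below knockout replicate 3 at 12.43, and Fmod, a collagen-binding proteoglycan, at 7.04 was below wild-type replicate 1 at 7.20. The endothelial receptor Tie1 was not highest there either, while Cd34, carried by endothelial and stromal progenitor cells, was highest by 0.08. The part of cell make-up in these values was not tested.

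**Figure D3:**
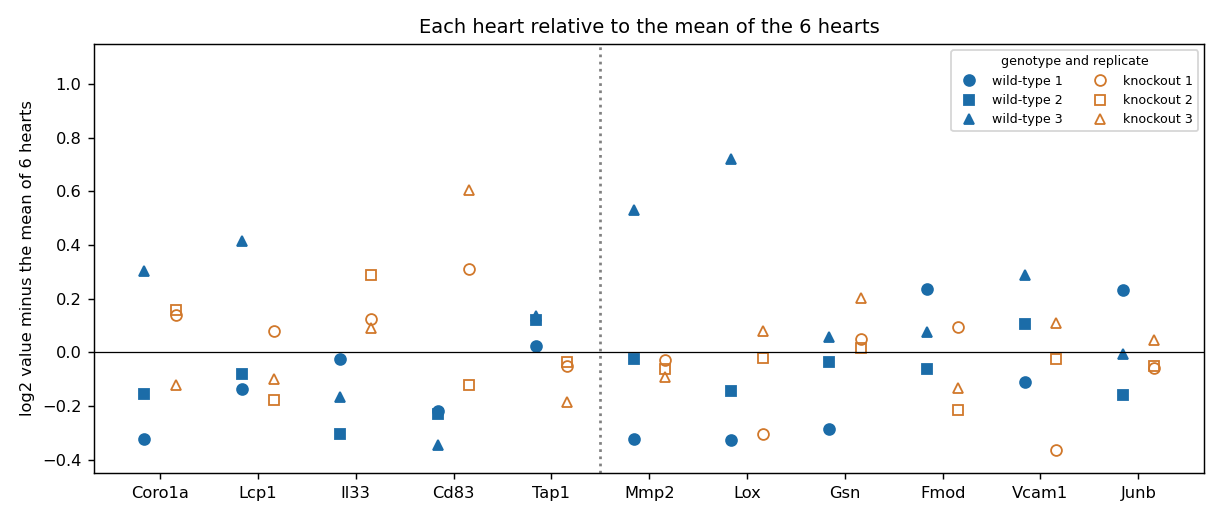
Log2 value of each heart minus the mean of the 6 hearts (vertical axis) for the 5 measured members (left of the dotted line) and for the 4 measured fibroblast markers, Mmp2, Lox, Gsn and Fmod, and the activation and NF-kB genes Vcam1 and Junb (right). Filled blue symbols are wild-type and open orange symbols knockout hearts. Wild-type replicate 3 is the highest heart for Coro1a, Lcp1, Tap1, Mmp2, Lox and Vcam1, and not for Il33, Cd83, Gsn, Fmod and Junb.

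The heart highest in Coro1a and Lcp1 was not the heart highest in Cd83. Wild-type replicate 3, highest in Coro1a and Lcp1, had the lowest Cd83 value of all hearts, 5.59. Knockout replicate 3, highest in Cd83 at 6.54, had Coro1a at 6.10 and Lcp1 at 7.16, both inside the wild-type range. Knockout replicate 1 was second highest in both Cd83, at 6.25, and Lcp1, at 7.34, with Coro1a at 6.36. Il33 in wild-type replicate 3, at 5.99, was in the middle of the wild-type hearts. Pearson's r over the 6 hearts was -0.11 between Cd83 and Coro1a and -0.26 between Cd83 and Lcp1, and 0.23 and -0.39 between Il33 and the same genes.

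Few other immune genes were measured, and 0 of them passed. Between them, 15 lists of leukocyte markers and immune pathways named 366 genes, of which 15 were measured, 5 of them the members. Of the other 10, 4 had higher and 6 had lower means in knockout hearts, 0 passed in either direction by limma at an adjusted p under 0.05, and 0 were without overlap. Their median difference was -0.03, against 0.01 over all genes tested. The genes that define T cells, NK cells, macrophages and dendritic cells in these lists were not analysed here, nor was Ptprc, the common leukocyte antigen.

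Among those 10 genes, the neutrophil and mast cell markers Mpo, Mmp9 and Kit had low values. Mpo, an enzyme of neutrophil granules, was at 3.45 to 3.54 in wild-type and 3.49 to 3.74 in knockout hearts. Mmp9, a protease that neutrophils store, differed by -0.13 (95% interval -0.44 to 0.17), and Kit, the stem cell factor receptor of mast cells, by 0.04 (95% interval -0.14 to 0.22). Cd24a, a surface protein of immature B cells and of many other cells, stood at 6.04, 6.38 and 6.83 in wild-type and 6.42, 6.26 and 6.84 in knockout hearts. It was high in replicate 3 of each genotype and differed by 0.09 (95% interval -0.42 to 0.60). The chemokine Cx3cl1, which endothelial cells present to monocytes, differed by -0.05 and the complement gene C2 by -0.07, both with overlap of the genotypes.

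Actin-binding proteins that are not restricted to leukocytes had higher means in knockout hearts. Of the 59 genes of this list 8 were measured, and the 6 beside Coro1a and Lcp1 were all higher in the mean, as were 259 of all 494 genes. The median difference of the 6 was 0.14 against 0.01 over all genes tested, and 0 of the 6 passed. Rdx, radixin, which ties actin to the plasma membrane, differed by 0.23 (95% interval 0.02 to 0.45). The intervals of the others included 0. Vcl, vinculin of cell adhesions, differed by 0.18 (95% interval -0.06 to 0.43) and Gsn, the actin-severing gelsolin, by 0.18 (95% interval -0.07 to 0.42). Arpc1a differed by 0.10 and Tmsb4x by 0.09. Cotl1, a coactosin-like protein abundant in leukocytes, differed by 0.03 (95% interval -0.22 to 0.29). The genotypes overlapped for all 6.

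The measured heart muscle genes had overlapping values in the genotypes. Actc1, the cardiac actin, stood at 14.11 ± 0.03 and 14.12 ± 0.01 and Fabp3, which binds fatty acids inside muscle cells, at 13.52 ± 0.05 and 13.57 ± 0.06 (SD, n = 3 each). Of the 20 heart muscle markers 3 were measured, and 0 passed.

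The red cell markers had higher means in knockout hearts, in the same direction as Il33 and Cd83. Of the 11 genes of this list 2 were measured, both were higher in the mean, with a median difference of 0.22 against 0.01 over all genes tested, and 0 of the 2 passed. Bpgm, which makes the regulator of haemoglobin's oxygen affinity, stood at 7.20, 7.70 and 7.50 in wild-type and 8.06, 7.37 and 7.91 in knockout hearts, a difference of 0.31 (95% interval -0.14 to 0.77) with overlap of the genotypes. Like Cd83 it was lowest among knockout hearts in replicate 2. Car1, a carbonic anhydrase of red cells, differed by 0.13 (95% interval -0.13 to 0.39), also with overlap. Unlike Bpgm and Cd83, Car1 was highest among knockout hearts in replicate 2, at 4.10, against 4.03 in replicates 1 and 3. The globin genes were not analysed here, and the part of blood content in the differences of Il33 and Cd83 was not tested.

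The genes nearest to each member in pattern were found by Pearson's r over the 6 hearts among 489 other genes, 3 for each. Nearest to Il33 were the tight junction gene Cldn11 (0.96) and the ribosomal protein genes Rps4x (0.93) and Rpl7 (0.90). Nearest to Cd83 were Gosr1 (0.91), a Golgi SNARE, Chgb (0.86), a secretory granule protein, and Mpdu1 (0.85), which serves glycosylation. Nearest to Tap1 were the aldehyde dehydrogenase Aldh3a2 (0.99), Bcar3 (0.96) and Vps26c (0.94). Coro1a was nearest to Fbln5 (0.96), a protein of elastic fibres, Serpinf1 (0.91), a secreted serpin, and Tmem165 (0.91). Lcp1 was nearest to Pgc (0.95), the stomach protease progastricsin, Polr1b (0.95) and Nusap1 (0.94). Values of this size are common with 6 arrays, since over all 494 genes the median of the highest r was 0.96 and of the third highest 0.92. These coefficients rest on arrays that share a genotype and a normalization.

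Control probe sets moved with the genotype and stand beside the differences above. The mean over 18 hybridisation spike probe sets, RNA added in a fixed amount before hybridisation, was 9.89 ± 0.23 for the wild-type and 9.52 ± 0.18 for the knockout genotype (SD, n = 3), with the highest knockout array at 9.679 and the lowest wild-type array at 9.688. With this level as a covariate, a fit chosen after seeing the data, the difference was 0.50 for Il33 (95% interval 0.20 to 0.80), 0.31 for Cd83 (95% interval -0.28 to 0.90), -0.18 for Tap1 (95% interval -0.47 to 0.10), -0.06 for Coro1a and -0.40 for Lcp1 (95% interval -0.88 to 0.09). The 3' minus 5' difference of Actb is a measure of RNA integrity in which a lower value means less excess of 3' signal. It averaged 0.75 ± 0.02 for the wild-type and 0.63 ± 0.11 for the knockout genotype (SD, n = 3). The highest knockout array was at 0.731 and the lowest wild-type array at 0.737. The measure was lowest, at 0.51, in knockout replicate 3, the heart with the highest Cd83 and the lowest Tap1. The part of RNA integrity in the differences of the members was not tested.

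**Figure D4:**
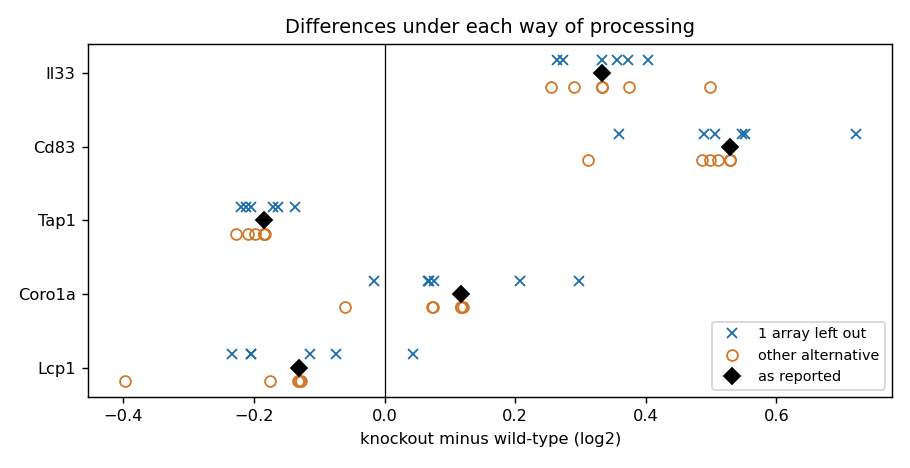
Knockout minus wild-type difference (log2, horizontal axis) of each measured gene as reported (black), with each array left out in turn (blue crosses) and in the other alternatives (orange circles). Il33 and Cd83 stay above 0 and Tap1 below 0 in every fit shown, while Coro1a and Lcp1 cross 0. In genes whose groups do not overlap, leaving out an array cannot change the sign.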

How the data were processed

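Values were deposited by the authors as log2 expression per probe set, with RMA, Partek and GCOS as the tools named, without version, role or order, per the submitters' processing notes. Per the labels' protocols, a whole-transcriptome kit amplified the RNA before labelling, and its share of the spread was not tested. RMA sets arrays to a common distribution, so a shift shared by all genes is lost. Values were present in 707 of 45101 rows, 643 of them gene probe sets and 64 controls, and the rest were not analysed here. The annotation gave 1 symbol to 597 probe sets, several to 26 and none to 20. All 597 matched RefSeq by gene ID (GRCm38.p6), for 494 genes, each read by its probe set with the highest mean. The genotype comparison used limma 3.58.1 under R 4.3.3 (lmFit, eBayes, two-sided, Benjamini-Hochberg over 494 genes), without filter or covariate, and the code was tested on simulated data. The number of arrays limits the precision, and detection calls were not used. Members, lists and tests were chosen with earlier results of these data known. Named genes were the members, measured genes of the lists and the 3 nearest genes by Pearson's r for each member. Alternatives covered the prior variance, array weights, normalization, a dim filter, probe set choice, a replicate block, a spike covariate and each array left out.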

Additional observations from a re-analysis of the deposited data

How the results depend on the processing

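Il33, Cd83 and Tap1 kept their direction in all 13 alternatives that could give them a value, and no member passed an adjusted p under 0.05 in limma in any. In genes whose groups do not overlap, leaving out or weighting arrays cannot change the sign. The prior variance, the replicate block and the probe set choice left the size of the differences of Il33, Cd83 and Tap1 as it was, but not their intervals. The interval of Tap1 included 0 with a prior variance that follows expression (-0.39 to 0.02) and with the replicate block (-0.39 to 0.02). It excluded 0 with the probe set choice, and those of Il33 and Cd83 excluded 0 in all of these fits. Only the changes of normalization and the spike covariate could have reversed the differences of Il33, Cd83 and Tap1. The filter on dim genes left only Lcp1 of the members. Coro1a was -0.0610 with the spike covariate, chosen after seeing the data, and -0.0155 to 0.299 over fits without 1 array, and Lcp1 was -0.233 to 0.0439. The cause was not tested. With a prior variance that follows expression limma called 1 gene, not a member, and the 12 genes at an unadjusted p under 0.01 became 20, then 22 with array weights and 3 to 17 without 1 array (7 and 3 without wild-type replicate 1 or 2, 7 and 6 without knockout replicate 2 or 3). With the replicate block the counts were 0 and 11. Same-numbered hearts deviated from their group means with correlations of -0.15, -0.08 and 0.18. Hearts with different numbers reached -0.26 and 0.28, so these values do not decide whether the numbers pair the hearts. The values come from 3 arrays per genotype without detection calls, so dim genes have no check against background.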

Other observations

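Wild-type replicate 3 stood above all other hearts by at least 0.3 on the log2 scale in 9 genes, more than in any other array, where the counts were 1 to 5. Besides Lox, Mmp2 and Lcp1 these were Dpysl3, a protein of the cytoskeleton of growing neurons (0.49), the transporter gene Slc35a4 (0.34), the desaturase Scd2 (0.34), the secreted serpin Serpinf1 (0.34), the spindle gene Nusap1 (0.32) and Rab31, a regulator of vesicle traffic (0.31). These genes were picked by their values in this heart, so no test was made.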
